A study of Mus musculus with 24 samples.

Results

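Livers of fed mice that lack p110α in hepatocytes (p110aLKO_Fed) were set against livers of fasted mice with the intact gene (p110aLWT_Fasted), to ask how far loss of insulin signalling in fed animals resembles fasting. The comparison took all arrays of these groups, 6 in each, which is 12 of the 24 arrays of the series, with 1 array for the liver of each mouse. All mice were 12-week-old males homozygous for a floxed Pik3ca allele. p110aLKO mice also carried 1 copy of a Cre transgene, and p110aLWT mice were littermates without it. The albumin promoter drives this Cre, so that the floxed exons are removed in hepatocytes while the other cells of the liver keep the gene. Fed mice ate freely until they were killed, while food was withheld from fasted mice over the last 24 h. Every liver was taken at ZT16, in the dark phase. Genotype and feeding state differ at once between the compared groups, and their parts in a difference cannot be told apart from this comparison alone. The 6 p110aLWT_Fed arrays are therefore given beside it, and the 6 p110aLKO_Fasted arrays entered the model of the spread.

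Insulin binds its receptor after a meal and activates phosphoinositide 3-kinase, of which p110α is a catalytic subunit, and then the kinase AKT. In hepatocytes AKT excludes the transcription factor FOXO1 from the nucleus, which lowers genes such as Igfbp1 and Irs2, and it raises SREBP1c, which drives fatty acid synthesis. Fasting removes this signal, but it also brings fatty acids from adipose tissue, glucagon and glucocorticoids to the liver, and the fatty acid receptor PPARα then induces oxidation, ketone body and lipid droplet genes. SREBP2 governs cholesterol synthesis and is controlled by sterols in the endoplasmic reticulum.

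Values are normalized log2 signals, and differences are log2 differences of p110aLKO_Fed minus p110aLWT_Fasted from a limma model of all 24 arrays with array weights and a slide term, so that they can depart slightly from the difference of the group means. A gene was called at an adjusted p of at most 0.05 with a fold change over 1.5. Each of the 21779 genes is represented by its brightest probe. Of these, 2454 were called, 1318 of them higher and 1136 lower in p110aLKO_Fed. That is 11.3% of all genes tested, 6.05% in the higher and 5.22% in the lower direction. Counts of called genes in the lists below are to be read against these shares. In 16722 genes, or 76.8%, the 95% confidence interval of the difference lay wholly within 1.5-fold of no change, and 2603 genes were neither called nor bounded in this way. For 2021 of the called genes the 6 arrays of either group did not overlap, against 22.7% of all genes without overlap. Differences beyond 4-fold were called in 143 genes.

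The control comparisons each share arrays with this one, so that their values are given side by side only. Fasting in control mice (p110aLWT_Fasted against p110aLWT_Fed) gave 2164 called genes, or 9.94% of those tested, with 4.75% higher and 5.19% lower after fasting. In that comparison 78.7% of genes were bounded within 1.5-fold and 21.3% did not overlap. The fed genotype comparison (p110aLKO_Fed against p110aLWT_Fed) gave 847, or 3.89%, with 2.67% higher and 1.22% lower in the knockout, and 88.4% of genes were bounded within 1.5-fold. Over all genes, the p110aLKO_Fed arrays lay at a root mean square log2 distance of 0.347 ± 0.0201 (SD, n = 6) from the mean of p110aLWT_Fed. Their distance from the mean of p110aLWT_Fasted was 0.484 ± 0.0237 (n = 6). Array by array, the distance to the fed controls ran from 0.312 to 0.373 and that to the fasted controls from 0.451 to 0.513, without overlap. Each p110aLKO_Fed array was 0.223 ± 0.0184 from the mean of the other 5 of its group.

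**Figure D1:**
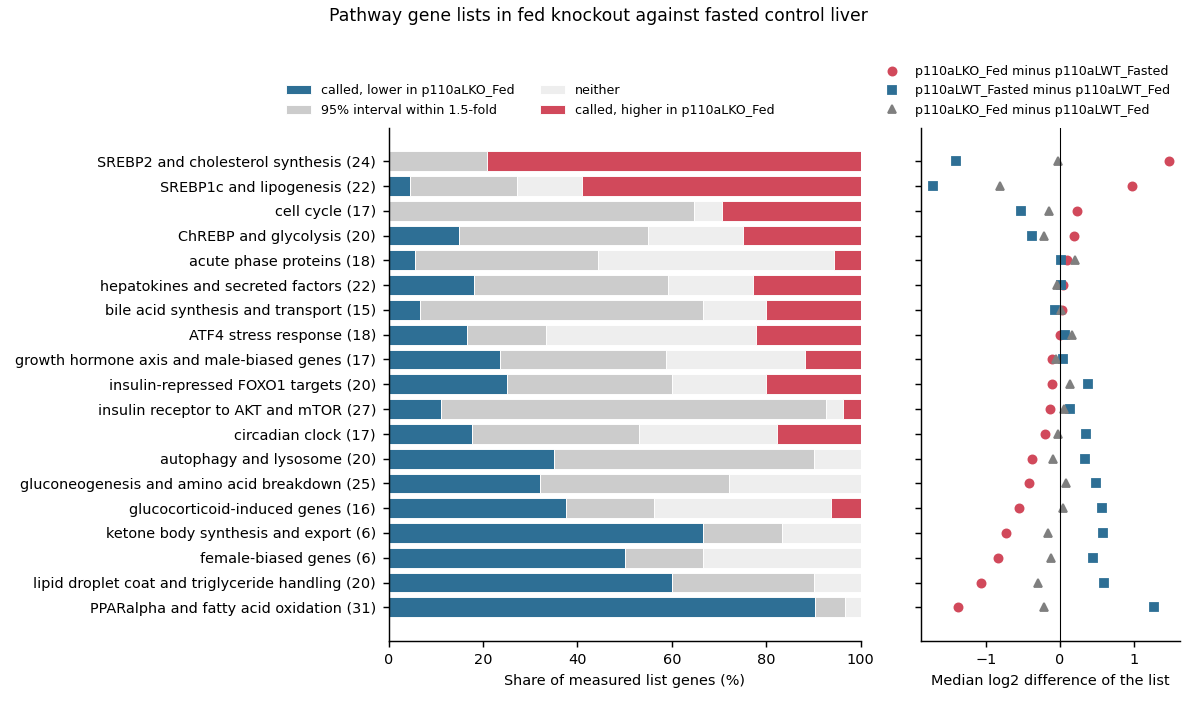
Left, the share of measured genes of each of 19 pathway lists (number of genes in parentheses) that were called lower, called higher, bounded within 1.5-fold by the 95% interval, or neither, in p110aLKO_Fed against p110aLWT_Fasted. Right, the median log2 difference of each list in this comparison (circles), in fasting of control mice (squares) and between genotypes in the fed state (triangles). Cholesterol synthesis and lipogenesis lie at the higher end, and PPARα and lipid droplet genes at the lower end.

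Pik3ca, the deleted gene, was read by a 60-base probe at chr3:32364747-32364806 (mm9). Its log2 signal was 12.54 ± 0.26 (SD, n = 6) in p110aLKO_Fed, 12.28 ± 0.14 in p110aLWT_Fasted and 11.91 ± 0.21 in p110aLWT_Fed. The difference of 0.23 did not pass the test (adjusted p = 0.0902). The position of this probe relative to the floxed exons is not given in the files, so that the probe does not check the deletion. Transcripts from other liver cells also enter it, and in such bulk samples fewer cells of a type and less RNA per cell cannot be told apart.

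Genes that insulin represses through FOXO1 differed from the fasted level in both directions. In all, 9 of the 20 were called, against 11.3% of all genes, so that a list mean or median near the fasted one is not likeness of its members. Of the 20 list genes, 4 were called higher, 5 lower and 7 were bounded within 1.5-fold, and the median difference was -0.11, against 0.00249 over all genes. The same list had a median of 0.38 in fasting of control mice and of 0.14 between genotypes in the fed state. The mean level of the list ran from 11.79 to 12.12 over p110aLKO_Fed arrays, from 11.88 to 12.18 over p110aLWT_Fasted and from 11.40 to 11.66 over p110aLWT_Fed. The study itself had picked Igfbp1, Igfbp2 and Enho of this list, as well as Pnpla3, Scd1 and Cidec of those below, from these livers, so that these genes are not independent evidence of a direction.

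Igfbp1, a secreted protein that binds insulin-like growth factors, overlapped with the fasted level in fed knockout livers, with a wide interval. The lowest, median and highest log2 signals were 14.24, 15.64 and 15.89 in p110aLKO_Fed against 14.79, 15.33 and 16.44 in p110aLWT_Fasted. The p110aLWT_Fed arrays reached from 12.97 to 14.40. Apart from 1 p110aLKO_Fed array at 14.24, every array of the fed knockout group was above every fed control array. The difference of -0.10 had a 95% interval from -0.75 to 0.56, which is too wide to bound it within 1.5-fold.

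Irs2, the adaptor that links the insulin receptor to phosphoinositide 3-kinase, rose only part of the way. Its signals were 10.56, 11.02 and 11.56 in p110aLKO_Fed, 11.09, 11.98 and 12.45 in p110aLWT_Fasted, and 8.82, 9.46 and 9.87 in p110aLWT_Fed. The fed knockout arrays overlapped with the fasted arrays and lay wholly above the fed controls. The log2 difference from the fasted level was -1.01 ± 0.212 (SE, adjusted p = 0.000547), a 2.01-fold lower level. Pck1, the enzyme that commits carbon to gluconeogenesis, had fed knockout arrays that overlapped with both control states and was 1.72-fold below the fasted level (adjusted p = 0.00271). G6pc, the phosphatase that releases free glucose, differed by -0.11 with an interval from -0.45 to 0.22, within 1.5-fold of the fasted level, and Insr, the insulin receptor, by -0.21 with an interval from -0.38 to -0.03.

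Enho, which encodes the secreted peptide adropin, and Igfbp2, another binding protein of insulin-like growth factors, were above the fasted level. Enho signals were 14.46, 14.70 and 14.85 in p110aLKO_Fed against 11.70, 12.23 and 12.57 in p110aLWT_Fasted, with no overlap. This was a 5.59-fold difference (2.48 ± 0.213, adjusted p = 6.61e-09), and the second Enho probe gave 2.54. Igfbp2 was 1.71-fold higher than in fasted controls (adjusted p = 0.0029) and also without overlap. In fasting of control mice the differences were -0.45 for Enho, which was not called, and 0.86 for Igfbp2, which was.

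Opposite to these, Pdk4, the kinase that blocks pyruvate oxidation and that PPARα also induces, was 8.89-fold lower than in fasted controls (-3.15 ± 0.333, adjusted p = 1.37e-07). Its 6 p110aLKO_Fed arrays, from 8.57 to 9.27, lay below all p110aLWT_Fasted arrays, from 10.91 to 13.24. Fbxo32, a ubiquitin ligase subunit, was 2.11-fold lower (adjusted p = 6.06e-07) and Ppargc1a, a coactivator of gluconeogenesis genes, 1.67-fold lower (adjusted p = 0.0122), a call lost without p110aLKO_Fed replicate 1 (-0.59). Bcl6, a transcriptional repressor, was called higher at 1.32 ± 0.525, but its groups overlapped and the call was lost in several alternative analyses.

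To show the regulatory sequence of the FOXO1 genes, the 250 bases before the start of each gene in the RefSeq promoter table (assembly GRCm38.p6) were searched on both strands for TGTTTTG, a core of the insulin response element, and for TGTTTAC, a FOXO binding core. Of the list genes measured, 15 were in the table. TGTTTTG occurred in 3 of these 15, Igfbp1, G6pc and Irs2, and in 6.38% of all 27025 genes of the table. TGTTTAC occurred in 0 of the 15 and in 3.54% of all genes of the table. The Igfbp1 window is chr11:7197537-7197786 on the plus strand, that of G6pc chr11:101367466-101367715 on the plus strand and that of Irs2 chr8:11008930-11009179 on the minus strand. They are printed 5′ to 3′ because each holds TGTTTTG, and not because of the level of its gene. Capitals mark the match on either strand, which begins 108, 174 and 37 bases before the start.
Igfbp1: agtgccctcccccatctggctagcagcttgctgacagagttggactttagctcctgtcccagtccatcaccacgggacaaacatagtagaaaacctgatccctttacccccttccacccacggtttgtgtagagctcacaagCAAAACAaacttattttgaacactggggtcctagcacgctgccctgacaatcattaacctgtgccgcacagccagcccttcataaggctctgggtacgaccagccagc
G6pc: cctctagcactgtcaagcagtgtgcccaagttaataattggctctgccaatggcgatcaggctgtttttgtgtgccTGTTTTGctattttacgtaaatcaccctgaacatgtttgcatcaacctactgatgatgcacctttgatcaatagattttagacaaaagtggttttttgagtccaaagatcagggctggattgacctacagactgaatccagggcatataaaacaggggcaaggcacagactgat
Irs2: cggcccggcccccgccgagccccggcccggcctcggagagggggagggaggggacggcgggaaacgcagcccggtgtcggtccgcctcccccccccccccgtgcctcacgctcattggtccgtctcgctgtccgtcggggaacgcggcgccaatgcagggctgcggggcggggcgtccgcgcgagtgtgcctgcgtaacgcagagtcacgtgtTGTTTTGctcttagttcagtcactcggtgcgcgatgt
A match is a description of these letters and not a measured site.

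**Figure D2:**
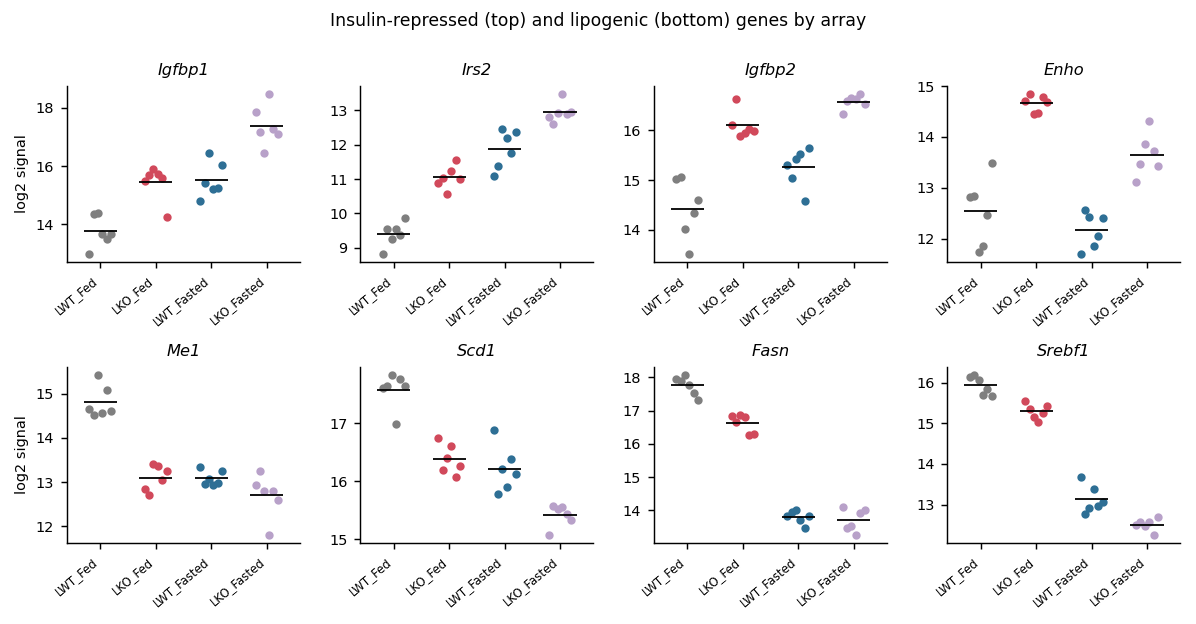
Log2 signal of 8 genes on each array (points) with the mean of each group (line), for p110aLWT_Fed, p110aLKO_Fed, p110aLWT_Fasted and p110aLKO_Fasted. Igfbp1, Me1 and Scd1 of p110aLKO_Fed lie among the p110aLWT_Fasted values, Enho and Igfbp2 above them, and Fasn and Srebf1 between the control states.

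Genes of fatty acid synthesis lay, as a list, between both control states. Of the 22 list genes, 13 were called higher in p110aLKO_Fed, 1 lower, 5 were bounded within 1.5-fold and 3 were neither. The median difference from the fasted level was 0.97, while fasting moved the list by a median of -1.72 in control mice and the fed genotype comparison by -0.81. On the scale of the list mean, the arrays ran from 12.91 to 13.46 in p110aLKO_Fed, from 11.84 to 12.17 in p110aLWT_Fasted and from 13.99 to 14.85 in p110aLWT_Fed, and none of these ranges overlapped.

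Fasn, fatty acid synthase, had signals of 16.26, 16.74 and 16.88 in p110aLKO_Fed, 13.45, 13.82 and 14.02 in p110aLWT_Fasted and 17.33, 17.83 and 18.08 in p110aLWT_Fed. It was 7.5-fold above the fasted level (2.91 ± 0.138, adjusted p = 1.31e-12). Srebf1, which encodes SREBP1, was 4.40-fold above it, with arrays from 15.03 to 15.55 against 12.78 to 13.67 (adjusted p = 1.89e-11). In both genes the 6 fed knockout arrays fell into the gap between the fasted and the fed controls.

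The same direction held for other members of the path from citrate to long-chain fatty acids. Acly, which makes cytosolic acetyl-CoA, was 4.29-fold above the fasted level (another probe at 1.27), Acaca, acetyl-CoA carboxylase 1, 2.93-fold (further probes from 0.49 to 1.48), and Elovl6, an elongase of saturated chains, 5.09-fold. Thrsp and Mid1ip1, partner proteins that promote acetyl-CoA carboxylase activity, were 9.07-fold and 6.85-fold higher. The fed knockout and fasted arrays did not overlap in any of these genes, and only Mid1ip1 also overlapped with p110aLWT_Fed, with adjusted p from 1.31e-12 for Fasn to 2.13e-09 for Elovl6.

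Pnpla3 and Pnpla5, lipid hydrolases of the patatin family, were dim or not detected in fasted controls. Pnpla5 was well above background on 6 of 6 arrays in p110aLKO_Fed, at 7.37, 8.79 and 9.69, and on 0 of 6 in p110aLWT_Fasted, where it read 5.45 to 5.66. Each fasted array was set to the higher of the probe's own signal and the lowest signal well above background, and against their mean the fed knockout mean was at least 7.59-fold higher. This bound is not the fitted fold, and the fit gave an adjusted p of 3.05e-08. Another probe gave 0.90. In p110aLWT_Fed it read 11.41 to 13.00. Pnpla3 was well above background on only 1 fasted array, and its fed knockout arrays formed 2 clusters, 4 between 8.14 and 8.54 and 2 at 6.63 and 6.71. Its other probe gave 0.82.

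A smaller set of lipogenic genes had reached the fasted level. Me1, malic enzyme, which supplies NADPH, had signals of 12.70, 13.15 and 13.41 in p110aLKO_Fed and 12.94, 13.02 and 13.34 in p110aLWT_Fasted, against 14.53, 14.63 and 15.43 in p110aLWT_Fed. Its difference from the fasted level was 0.03 with an interval from -0.28 to 0.34, and its other probe gave 0.05. Scd1, the desaturase that makes oleate, differed by 0.21 with an interval from -0.10 to 0.52, and its arrays in fed knockout livers, 16.08 to 16.74, overlapped with the fasted arrays, 15.78 to 16.89, and not with the fed controls, 16.99 to 17.84. The representing probes of Fads1, Fads2 and Slc25a1 were also bounded within 1.5-fold of the fasted level, but had changed by less than 1.5-fold on fasting or, for Slc25a1, by -0.65. Another Fads1 probe gave 0.75 (adjusted p = 0.000488).

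Elovl5, an elongase of polyunsaturated fatty acids, was the list gene called lower. Its arrays ran from 13.20 to 13.76 in p110aLKO_Fed, below both p110aLWT_Fasted, 14.18 to 14.93, and p110aLWT_Fed, 14.18 to 14.87. The difference from the fasted level was -1.03 ± 0.117 (adjusted p = 3.79e-07). Its other probes gave -0.82 and -0.03.

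**Figure D3:**
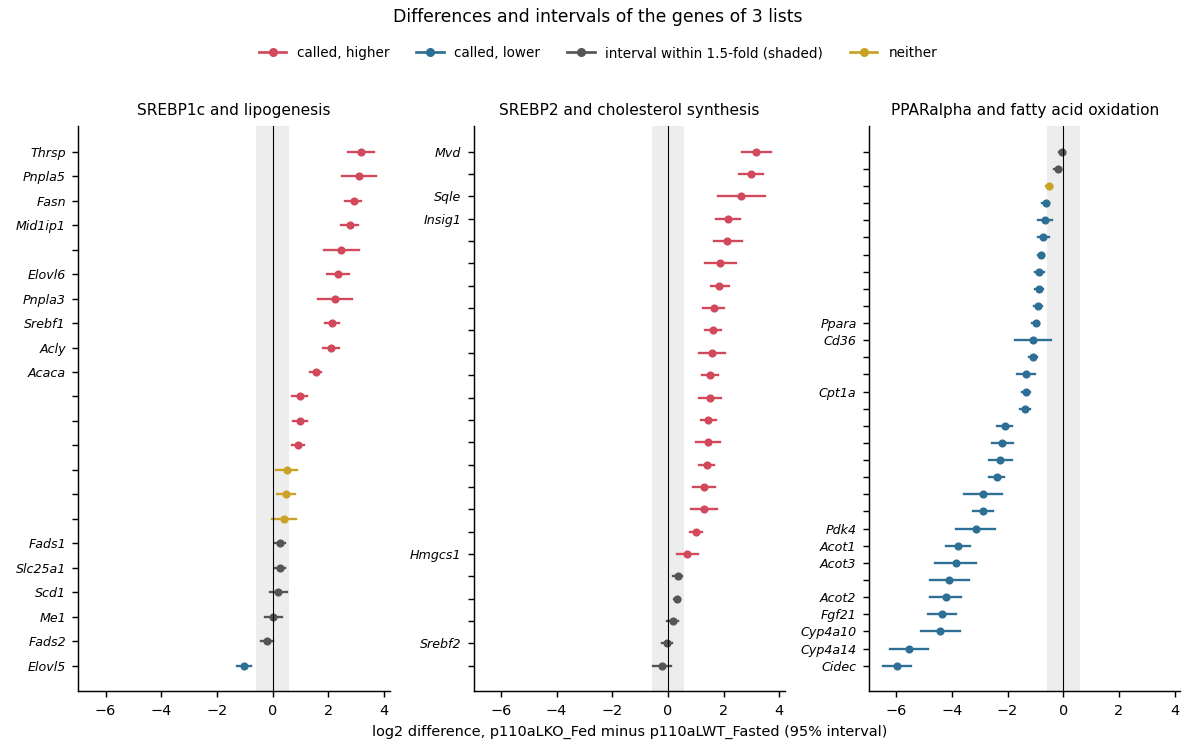
Log2 difference of p110aLKO_Fed minus p110aLWT_Fasted with its 95% interval for each gene of 3 lists, sorted by size, with the range within 1.5-fold shaded and the genes described in the text named. Only Elovl5 of the lipogenic genes is called lower, no gene of cholesterol synthesis is, and all 31 PPARα genes lie below 0.

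Cholesterol synthesis genes of fed knockout livers were above the fasted level and among the fed control values. Of the 24 genes of the list, 19 were called higher than in fasted controls, 0 lower, and 5 were bounded within 1.5-fold. The median difference was 1.47. On fasting of control mice 19 were called lower with a median of -1.41, and in the fed genotype comparison 0 were called in either direction, with a median of -0.02. List means ran from 12.59 to 13.40 in p110aLKO_Fed, from 11.26 to 12.10 in p110aLWT_Fasted and from 12.93 to 13.45 in p110aLWT_Fed, so that the fed knockout arrays overlapped with the fed controls and not with the fasted ones.

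The largest difference from the fasted level in this list was in Mvd, mevalonate diphosphate decarboxylase. Mvd read 10.17, 11.44 and 11.64 in p110aLKO_Fed against 7.61, 7.97 and 8.53 in p110aLWT_Fasted (3.18 ± 0.246, 9.04-fold, adjusted p = 1.41e-09). These groups did not overlap, while the fed knockout arrays overlapped with p110aLWT_Fed, at 11.02 to 12.35.

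Sqle, squalene epoxidase, was 6.25-fold higher (adjusted p = 1.92e-05), but its fasted arrays formed 2 clusters, 3 between 9.37 and 9.93 and 3 between 11.89 and 12.06, all below the lowest fed knockout array at 12.59. Insig1, which holds SREBPs in the endoplasmic reticulum, was 4.47-fold higher (adjusted p = 5.27e-08), with arrays from 9.77 to 11.51 against 8.53 to 9.11. Srebf2, which encodes SREBP2 itself, differed by -0.05 with an interval from -0.23 to 0.14.

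Hmgcs1, which makes the HMG-CoA for sterol synthesis, was 1.63-fold higher (adjusted p = 0.00283) with overlapping groups. Its other probe gave 0.18, and the call was lost without p110aLKO_Fed replicate 4 (0.56), without p110aLWT_Fasted replicate 5 (0.5) and with the mean of its probes (0.451). It is the list gene whose upstream window held a sterol element. The letters TCACNCCAC were searched on both strands in the same 250 bases. They occurred in 1 of 16 list genes in the table and in 1.22% of all genes of the table. The Hmgcs1 window, chr13:119690101-119690350 on the plus strand (GRCm38.p6), is shown with the match in capitals, 137 bases before the start.
Hmgcs1: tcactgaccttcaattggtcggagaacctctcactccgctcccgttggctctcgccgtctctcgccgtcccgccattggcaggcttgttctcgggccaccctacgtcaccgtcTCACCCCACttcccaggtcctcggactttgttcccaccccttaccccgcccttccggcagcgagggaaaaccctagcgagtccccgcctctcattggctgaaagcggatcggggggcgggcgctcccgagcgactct

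Bile acid genes differed at single steps. Of the 15 measured, 3 were called higher, 1 lower and 9 were bounded within 1.5-fold. Over all genes these shares were 6.05%, 5.22% and 76.8%. Cyp7a1, the rate-limiting enzyme of bile acid synthesis, read from 11.39 to 12.96 in p110aLKO_Fed, with a median of 12.40, against 9.41 to 10.62 in p110aLWT_Fasted, a 3.88-fold difference without overlap (adjusted p = 0.000217). Its other probe gave 0.66. Nr0b2, the repressor SHP, was 2.45-fold and Abcb11, the bile salt export pump, 1.62-fold higher (a call lost without p110aLWT_Fasted replicate 3, at 0.581, or 6, at 0.56), while Cyp8b1, the sterol 12α-hydroxylase that sets the share of cholic acid, was 1.92-fold lower (adjusted p = 4.12e-05).

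**Figure D4:**
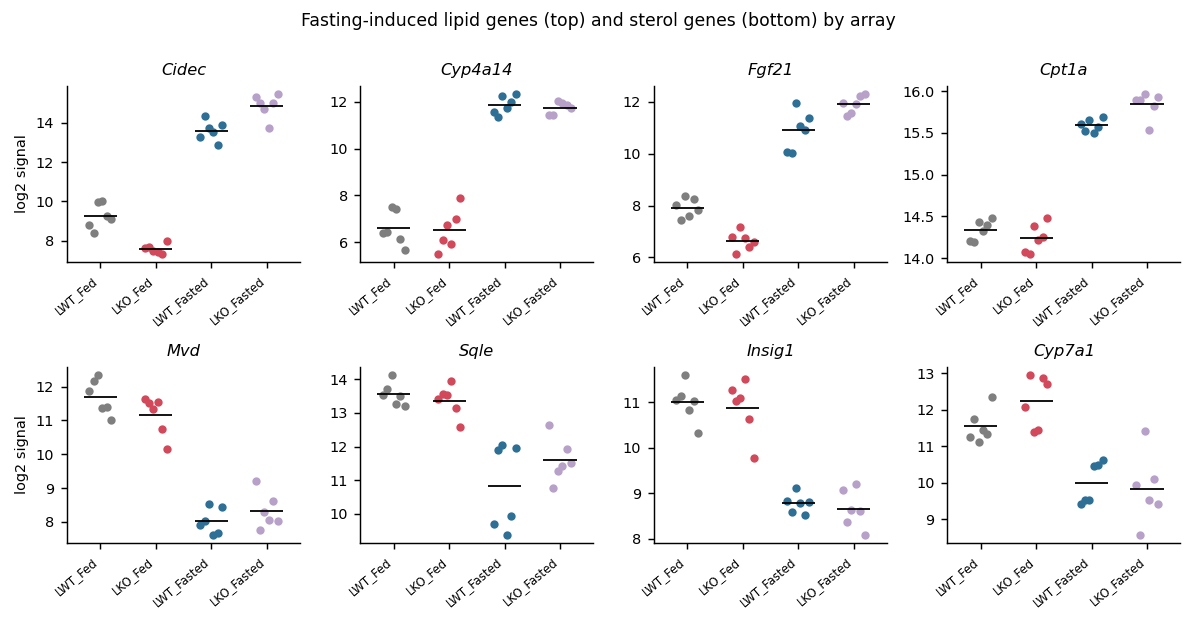
Log2 signal of 8 genes on each array (points) with group means (lines) in the 4 groups. Cidec, Cyp4a14, Fgf21 and Cpt1a of p110aLKO_Fed lie at or below p110aLWT_Fed and far below p110aLWT_Fasted. Mvd, Sqle, Insig1 and Cyp7a1 of p110aLKO_Fed lie among or near p110aLWT_Fed and above p110aLWT_Fasted.

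PPARα targets and genes of fatty acid oxidation were lower than in fasted controls in nearly the whole list. Of the 31 list genes, 28 were called lower, 0 higher, 2 were bounded within 1.5-fold and 1 was neither, and the median difference was -1.38. Fasting of control mice raised 24 of them, with a median of 1.27, whereas between genotypes in the fed state 7 were called lower, 0 higher, with a median of -0.22. The list mean ran from 12.02 to 12.75 in p110aLKO_Fed, from 14.38 to 14.69 in p110aLWT_Fasted and from 12.55 to 13.07 in p110aLWT_Fed.

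Cidec, a lipid droplet protein that enlarges droplets, had the largest difference in this list. Its signals were 7.31, 7.54 and 7.96 in p110aLKO_Fed, 12.86, 13.65 and 14.36 in p110aLWT_Fasted and 8.41, 9.17 and 10.02 in p110aLWT_Fed. The fed knockout arrays were thus below those of either control state, 62.8-fold below the fasted level (-5.97 ± 0.239, adjusted p = 1.35e-13). Fgf21, the fasting hormone, showed the same order, with 6.13, 6.67 and 7.17 in p110aLKO_Fed, 10.04, 10.99 and 11.94 in p110aLWT_Fasted and 7.45, 7.92 and 8.38 in p110aLWT_Fed, and was 20.6-fold below the fasted level (adjusted p = 1.63e-11).

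The fatty acid ω-hydroxylases Cyp4a14 and Cyp4a10 were far below the fasted level. Cyp4a14 read 5.49, 6.40 and 7.87 in p110aLKO_Fed against 11.36, 11.87 and 12.35 in p110aLWT_Fasted, a 46.6-fold lower level (adjusted p = 2.58e-11), and 5 of 6 fed knockout arrays were well above background. Its difference from p110aLWT_Fed was -0.05. Cyp4a10 was 21.4-fold lower than in fasted controls, with further probes at -4.39 and -4.42. The Cyp4a genes are near copies of each other, as are the acyl-CoA thioesterases Acot1 to Acot5, and a probe may read more than 1 of them. Acot1 was 13.7-fold, Acot2 18.8-fold, Acot3 14.6-fold and Acot5 18.8-fold lower. Further probes gave -5.21 for Acot3, -1.30 for Acot5 and -2.08 for Acot4, whose representing probe is not reported here.

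Genes of the oxidation pathway itself differed less. Cpt1a, which admits fatty acids to mitochondria, read 14.05, 14.23 and 14.48 against 15.50, 15.59 and 15.69, a 2.55-fold difference without overlap (adjusted p = 7.40e-12). Ppara, the receptor gene, was 1.98-fold lower (adjusted p = 6.45e-11). Slc22a5, the carnitine transporter, was 7.58-fold lower, and its difference from the fed controls was -0.18. Cd36, a fatty acid uptake protein, differed from this course, since it was called lower at -1.08 against fasted and at -1.19 against fed controls, with a fasting difference of -0.12. Of the 6 genes of ketone body synthesis and export, 4 were called lower and 0 higher, among them Slc16a1, a carrier that exports ketone bodies, at -0.81.

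Lipid droplet coat and triglyceride genes were lower or bounded in most of their list, which shares Cidec and Plin2 with the PPARα list. Of 20 genes, 12 were called lower, 0 higher and 6 were bounded within 1.5-fold, with a median of -1.07. Plin4, a droplet coat protein, read 8.61, 8.97 and 9.57 in p110aLKO_Fed against 12.76, 13.15 and 13.59 in p110aLWT_Fasted (18.1-fold lower, adjusted p = 3.50e-13). G0s2, the inhibitor of triglyceride lipase, was 12.0-fold lower and below the fed controls too, whereas Pnpla2, the lipase it inhibits, was 4.10-fold below the fasted level with arrays that overlapped with the fed controls. Dgat2, which makes triglyceride, was bounded within 1.5-fold of the fasted level at 0.10.

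Markers of adipose tissue are given beside these genes. Of 6 adipose markers, 5 were bounded within 1.5-fold and 1, Cfd, was called lower at -3.58. The mean of the 6 ran from 6.79 to 6.97 in p110aLKO_Fed, from 6.88 to 8.09 in p110aLWT_Fasted and from 7.19 to 7.64 in p110aLWT_Fed. The fed knockout arrays thus lay below all fed controls and overlapped with the fasted ones. The median difference was only -0.16 from the fasted level and -0.12 from the fed one, with 1 gene called lower in either case. This mean therefore does not stand for the list. Adipoq and Retn, secreted products of adipocytes, were each well above background on 2 of 6 fed knockout arrays. In p110aLWT_Fasted they were so on 3 and 5 of 6 arrays, at means of 5.76 and 5.93, against 5.63 and 5.75 in p110aLKO_Fed. The part of adipose tissue in the lipid droplet result was not tested.

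**Figure D5:**
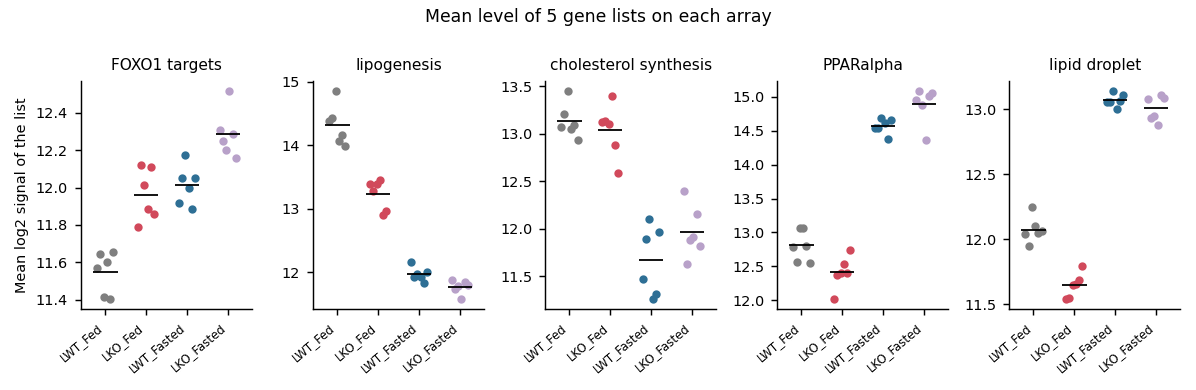
Mean log2 signal of the genes of 5 lists on each array (points) with group means (lines) in the 4 groups. Means of FOXO1 targets, whose members differ both ways, overlap between p110aLKO_Fed and p110aLWT_Fasted, lipogenic genes lie between the control states, cholesterol genes overlap with p110aLWT_Fed, and PPARα and lipid droplet genes lie far below p110aLWT_Fasted.

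Glucose production and amino acid breakdown were below the fasted level where they differed. Of 25 genes, 8 were called lower, 0 higher and 10 were bounded within 1.5-fold, with a median of -0.41. Got1, an aspartate aminotransferase, was 2.69-fold lower (adjusted p = 2.99e-06), Tdo2, which opens tryptophan breakdown, 2.48-fold, and Aass, which opens lysine breakdown, 2.46-fold, without overlap in any of them. Cps1 and Ass1 of the urea cycle were bounded within 1.5-fold. In glycolysis and its regulator ChREBP, 5 of 20 genes were called higher and 3 lower. Pklr, liver pyruvate kinase, was 2.45-fold and Mlxipl, which encodes ChREBP, 1.80-fold higher, while Txnip, an inhibitor of glucose uptake and a ChREBP target, was 4.68-fold lower (adjusted p = 2.37e-09).

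Of 27 genes of the insulin signalling chain, from the receptor to AKT and mTOR, 22 were bounded within 1.5-fold, a share near the 76.8% of all genes. In this chain 3 were called lower and 1 higher, against 5.22% lower and 6.05% higher over all genes. Differences were negative in 20 of the 27, and the list mean ran from 10.49 to 10.53 in p110aLKO_Fed and from 10.61 to 10.67 in p110aLWT_Fasted, without overlap. In p110aLWT_Fed it ran from 10.33 to 10.46. Besides Irs2, the lower genes were Foxo1, at 1.60-fold, and Pdpk1, the kinase that activates AKT, at 1.57-fold, both close to the threshold, and Grb10 was called higher at 0.62 with overlapping groups. The call was lost for Foxo1 without p110aLKO_Fed replicate 1 (-0.561), and for Grb10 without that replicate (0.509), without p110aLKO_Fed replicate 2 (0.512) or p110aLWT_Fasted replicate 4 (0.57), and with normexp (0.469). Rheb, the activator of mTOR complex 1, was at the fasted level, at -0.02 with an interval from -0.16 to 0.13, and above the fed controls by 0.56.

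Genes induced by glucocorticoids were far below the fasted level in part of the list. Of 16, 6 were called lower, 1 higher and 3 were bounded within 1.5-fold, with a median of -0.55. The higher one was Tsc22d3, at 0.6 (another probe at 0.38), a call lost in several alternative analyses. Mt2 and Mt1, metal-binding metallothioneins, were 20.6-fold and 11.7-fold lower, but another Mt1 probe gave -1.38 and was not called (adjusted p = 0.0559). Mt2 read 10.30, 13.08 and 13.43 in p110aLKO_Fed and 16.39, 16.99 and 17.23 in p110aLWT_Fasted, and in p110aLWT_Fed 5 arrays lay between 9.98 and 10.84 and 1 at 13.67. Cdkn1a, the cell cycle inhibitor p21, was 17.2-fold lower, with another probe at -1.31, and Fkbp5, a chaperone of the glucocorticoid receptor, 4.38-fold lower and at -0.01 from the fed controls (further probes at -1.47 and -0.65). The receptor gene Nr3c1 was bounded within 1.5-fold at 0.18.

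Secreted factors of the liver differed in both directions, with 5 of 22 called higher, 4 lower and 9 bounded within 1.5-fold. Apoa4, an apolipoprotein, read 13.07, 13.22 and 13.82 in p110aLKO_Fed, 15.77, 16.35 and 16.89 in p110aLWT_Fasted and 14.70, 15.36 and 15.66 in p110aLWT_Fed. It lay below both control states and 7.79-fold below the fasted one (adjusted p = 8.34e-13). Angptl8, an insulin-induced inhibitor of lipoprotein lipase, was 2.48-fold above the fasted level and below the fed level by 1.45 on the log2 scale, while Angptl4, which inhibits the same lipase in fasting, was 4.60-fold lower. Fst, the activin-binding follistatin, was 2.49-fold above the fasted level and 1.1 above the fed one. Leap2, the antagonist of the ghrelin receptor, read 12.77, 13.11 and 13.59 in p110aLKO_Fed and 12.64, 12.96 and 13.51 in p110aLWT_Fasted, against 13.88 to 14.46 in p110aLWT_Fed, and differed by 0.06 from the fasted level (interval -0.33 to 0.44).

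Cell cycle genes had 5 of 17 called higher and 0 lower, namely Ccnd1, cyclin D1, at 4.49-fold and the replication helicase genes Mcm2, Mcm3, Mcm5 and Mcm6, while the mitotic genes Mki67 and Top2a differed by 0.27 and 0.28. Autophagy and lysosome genes had 7 of 20 called lower, led by Gabarapl1 at 1.90-fold, and 11 bounded within 1.5-fold. Their list mean ran from 13.07 to 13.22 in p110aLKO_Fed and from 13.46 to 13.55 in p110aLWT_Fasted, without overlap. The circadian list had 3 of 17 higher and 3 lower, against 6.05% and 5.22% of all genes. In it Per2 was 2.27-fold higher (another probe at 0.20) and Nr1d1 1.81-fold lower. The core gene Arntl was bounded within 1.5-fold at -0.19. In the growth hormone and male-biased list, 2 of 17 were called higher and 4 lower, against the same 6.05% and 5.22%. Hsd3b5, a male-biased steroid enzyme, was 5.92-fold above the fasted level and at 0.01 from the fed one, and Cyp4a12a, also male-biased, was lower than both, at -1.38 and -1.26.

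Female-biased genes had 3 of 6 measured called lower, namely Cyp17a1, a steroid hydroxylase, Cyp4a14 and Acot3, the latter pair also described above among the PPARα targets. ATF4 stress genes had 4 of 18 higher and 3 lower, against 6.05% and 5.22% of all genes. Ddit3, the stress factor CHOP, had a mean of 9.55 ± 0.42 (SD, n = 6) in p110aLKO_Fed, with a lowest array at 8.89, against 7.87, 8.22 and 8.73 in p110aLWT_Fasted and 7.88 to 8.35 in p110aLWT_Fed, and was 2.36-fold above the fasted level (adjusted p = 0.00306), with another probe at 0.20. Phgdh, the first enzyme of serine synthesis, was 1.92-fold higher than in fasted controls. Acute phase genes had 1 of 18 higher and 1 lower, a share near the 11.3% of all genes called. A further 9 were neither called nor bounded. The lower one was Lbp, which binds bacterial lipopolysaccharide, at 2.28-fold.

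Passing over genes with dim, overlapping or clustered arrays, the 10 genes with the largest called fasting change in control mice that were bounded within 1.5-fold of the fasted level in p110aLKO_Fed were Acot11, Nat8f6, Me1, Scd1, Tmie, Reck, Snrpn, Gna14, Leap2 and Khk. All 10 had fallen on fasting, with log2 differences from -1.0 for Khk to -1.89 for Acot11. Acot11, an acyl-CoA thioesterase outside the PPARα group, read 7.92, 8.52 and 8.93 in p110aLKO_Fed and 8.04, 8.33 and 8.77 in p110aLWT_Fasted, against 9.64, 10.34 and 10.74 in p110aLWT_Fed. Khk, the kinase that opens fructose breakdown, was 0.30 above the fasted level with an interval from 0.12 to 0.47.

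In the opposite class, chosen in the same way, the 10 genes with the largest called difference from fasted controls that were bounded within 1.5-fold of the fed controls were Slc22a5, Asic5, Ctcflos, Manf, Zbed5, Slc22a21, Angptl4, Insig1, Fkbp5 and Lgals4. Of these, Manf, a stress-induced protein of the endoplasmic reticulum, was 5.01-fold and Insig1 4.47-fold above the fasted level, and the other 8 were below it. Asic5, an ion channel, read 9.13, 9.56 and 9.80 in p110aLKO_Fed against 11.96, 12.47 and 12.87 in p110aLWT_Fasted and 9.17, 9.72 and 9.90 in p110aLWT_Fed. The largest called differences over all genes named further members outside the lists. Rab30, a small GTPase, was 10.9-fold, Gpat3, a glycerol-phosphate acyltransferase, 16.4-fold and Slc16a5, a monocarboxylate carrier, 7.94-fold lower than in fasted controls, while Adgrf1, an adhesion receptor, was 6.38-fold and Syne4, a nuclear envelope protein, 4.49-fold higher. Further probes gave smaller differences in the same direction, -2.47 for Gpat3, -2.51 and -0.97 for Slc16a5, 1.59 for Adgrf1 and -1.95 for Asic5. The further Manf probe gave a larger one, 2.53.

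The labelled tissue was checked by hepatocyte markers, whose mean log2 signal was high and ran from 17.76 to 17.81 in p110aLKO_Fed and from 17.76 to 17.89 in p110aLWT_Fasted. Of 9 measured, 8 were bounded within 1.5-fold and 0 were called. Among markers of other cells, 0 of 10 Kupffer cell, 0 of 8 lymphocyte and 0 of 7 erythroid genes were called, but only 5, 4 and 0 of them were bounded within 1.5-fold, so that most or many were unresolved. The mean levels of these lists overlapped between the groups. Lyve1 of 10 endothelial genes was lower, Lrat and Col3a1 of 10 stellate genes were higher, Sox9 and Spp1 of 8 cholangiocyte genes were lower, S100a9 of 8 neutrophil genes was higher, and Cela2a of 4 pancreas genes was higher. The mean of the pancreas genes ran from 10.38 to 10.76 in p110aLKO_Fed and from 9.93 to 10.22 in p110aLWT_Fasted, without overlap. In p110aLWT_Fed it ran from 10.31 to 10.68. The median difference of these genes was 0.1 and the largest 1.61, so that this mean does not stand for the list. Pericentral hepatocyte genes had 2 of 10 higher, and periportal genes 2 higher and 3 lower, Sds, Pck1 and Hsd17b13. Over all genes, 6.05% were called higher and 5.22% lower. The part of cell composition in the gene differences was not tested.

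Detection well above background ran from 54.7% of spots on the lowest to 63.0% on the highest array, and 6 mice per group limit the precision, with a median half-width of the 95% interval of 0.168 on the log2 scale. The groups were balanced over 3 slides, at 2 arrays per group and slide. The arrays of lowest weight in the model among the groups compared here were p110aLWT_Fasted replicate 2, at 0.438, and p110aLKO_Fed replicate 5, at 0.730, and p110aLWT_Fed replicate 3 had 0.317. Without p110aLWT_Fasted replicate 2, 2447 genes were called. Arrays of a group fell apart into separate clusters for 21.7% of called genes, 31.0% of the higher and 10.8% of the lower ones, against 4.28% of all genes.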

How the data were processed

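Total liver RNA was labelled with Cy3 and hybridised to 1-colour Agilent arrays. The authors filtered the median signals, took log2, corrected for washing bath and quantile normalized, and deposited these log2 values for 32595 probes. Their filter rule is not given in the sources used here. Scanner intensities deposited per spot, from Agilent Feature Extraction 10.10.1.1, served for detection above background and for alternatives. Probes were named by matching their accession to a RefSeq gene table, which gave the name of 21672 of the 32595. The others kept the gene name of the scanner files. For 1008 probes the matched name differed from that in the scanner files. Positions on mm9 came from the scanner files. Each gene was represented by whichever of its probes was brightest on average across the 24 arrays.

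limma 3.58.1 (R 4.3.3) was fitted to all groups with array weights and slide as a term, since no label names the bath, with Benjamini-Hochberg adjustment over all 32595 probes. Named genes were the 12 largest called differences in either direction, members of the lists, and the 10 genes each at the fasted or at the fed level with the largest change, passing over genes with dim, overlapping or clustered arrays or without a plain symbol. Genes and lists were chosen with earlier results of these data known. Replicate numbers were not taken to pair mice, since of the 6 numbers only replicate 2 had deviations that correlated clearly (0.293, the others from -0.036 to 0.033). Some genes that meet the naming rule are not reported here, although the counts include them.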

Additional observations from a re-analysis of the deposited data

Results flagged for a closer look

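Among 224 groups of 6 arrays of the named genes, 7 held 1 array that lay apart from its neighbours by Dixon's criterion, which chance alone gives in about 1 in 20 groups. In p110aLKO_Fed, replicate 1 was lowest for Angptl4 at 13.38 (nearest array 14.37) and highest for Orm3 at 9.64 (8.59). Replicate 2 was highest for Igfbp2 at 16.63 (16.12), replicate 3 for Elovl6 at 13.43 (13.10) and replicate 4 for Plin2 at 14.58 (14.31). In p110aLWT_Fasted, replicate 5 was lowest for Cyp4a10 at 16.44 (16.87) and replicate 2 for Pklr at 7.89 (8.85).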

How the results depend on the processing

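Of the 162 called genes that were named or in a list, 106 stayed called in each alternative that tested them and 0 reversed direction, but only 122 of the 162 were tested in the one without genes whose arrays form clusters. Within slides 1, 2 and 3, where no test was made, the differences of 46, 32 and 40 of the 162 moved by more than the spread between arrays. Other settings gave 2454 called genes from the 12 compared arrays alone, 2436 without the slide term, 2409 without array weights, 2167 with normexp background correction, 2156 with the mean of a gene's probes and 1956 without genes whose arrays form clusters. In that last setting 924 were higher and 1032 lower, so that lower calls outnumbered higher ones. With the scanner's processed signal scaled to the 75th percentile, 3647 genes were called, 2044 higher and 1603 lower. With no minimum fold, 9962 were called, 5236 higher and 4726 lower. With a minimum fold of 2, 859 were called, 459 higher and 400 lower. The distance of p110aLKO_Fed to p110aLWT_Fed was 0.319 over genes above background on all 24 arrays. Leaving out 1 array at a time gave from 2353 to 2552 called genes, 1278 to 1372 higher, 1075 to 1204 lower and 16292 to 16633 bounded within 1.5-fold. With the replicate number as a block 2415 genes were called and 16728 were bounded, although the numbers do not pair the mice. Of 899 called genes with a further probe, 449 had one called the same way. Among genes with a described role, the call was lost for Foxo1 (-0.561), Grb10 (0.509) and Ppargc1a (-0.59) without p110aLKO_Fed replicate 1, for Hmgcs1 without p110aLKO_Fed replicate 4 (0.56) or p110aLWT_Fasted replicate 5 (0.5) and with the mean of its probes (0.451), and for Abcb11 without p110aLWT_Fasted replicate 3 (0.581) or 6 (0.56). Grb10 also lost it without p110aLKO_Fed replicate 2 (0.512) or p110aLWT_Fasted replicate 4 (0.57) and with normexp (0.469). Bcl6 lost it on leaving out any of p110aLKO_Fed replicates 2, 3, 5 and 6 or p110aLWT_Fasted replicates 3, 4 and 6. The causes of these shifts were not tested.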
